A study of Rattus norvegicus with 12 samples.

Results

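The genes described are the subunits of the oxidative phosphorylation machinery, chosen by gene symbol from the arrays' annotation. A gene was taken where its symbol begins with Ndufa, Ndufb, Ndufc, Ndufs, Ndufv, Sdha, Sdhb, Sdhc, Sdhd, Uqcr, Cox4, Cox5, Cox6, Cox7, Cox8 or Atp5, and assembly factors were left out. This gave 80 of the 14217 named genes. Of these, 34 belong to complex I, 4 to complex II, 7 to complex III, 19 to complex IV and 16 to complex V, with Ndufa4 and Ndufa4l2 counted in complex IV, where their proteins act. The 80 genes were measured by 89 probe sets, and each gene was read from its brightest probe set, judged by the mean of all 12 arrays. All 80 entered the test, since no filter on low values was applied.

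Liver RNA was measured on 12 Affymetrix arrays, each from a different male Wistar rat that was 5 weeks old per the labels. All rats received the purified diet AIN93G for 4 days and then, for 11 days, the same diet with 20% maple syrup (6 arrays) or with 20% of a syrup of similar sugar composition made from a sugar mix (6 arrays). All were fasted for 16 hours before dissection, so both groups represent fasted liver and neither is a group without added sugar. Per the labels the feeding groups held 7 rats (maple syrup) and 8 rats (sugar mix), and those beyond 6 per diet were not analysed here. The labels number the rats within each diet as biological replicates, and those numbers are used below. The question of the study, as its title gives it, is whether maple syrup protects the liver.

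The deposited values run from 5.5651 to 15.2071 and look like log2 intensities, but the arrays differ from each other by very little. The standard deviation of the subunit genes over the 12 arrays ran from 1.52e-07 to 0.000659 with a median of 3.36e-06, so a difference between animals is not a log2 ratio and no fold change is given. Each gene is instead shown as a standardised value, the distance of an animal from the gene's mean in units of that gene's standard deviation over all 12 animals. The diets are compared by Hedges' g, which divides the gap between the diet means by the pooled standard deviation and is given with its 95% interval. A g below 0 means a lower mean with maple syrup. Beside it stands the number of the 36 pairs of 1 rat of each diet in which the maple syrup rat was higher. The array medians lay between 7.36619 and 7.36632, a gap of 0.000133 that is wider than the spread of most subunit genes. The measured markers of hepatocytes, 12 of 13 written, had levels from 12.72 to 15.21, near the top of the table, with albumin (Alb) at 15.21. All 12 markers of skeletal and heart muscle had levels from 6.05 to 7.13, below 7.3663, the median of all probe sets.

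Oxidative phosphorylation turns the energy of food electrons into ATP in the inner mitochondrial membrane. Complex I takes electrons from NADH and complex II from succinate, complex III passes them from ubiquinol to cytochrome c, and complex IV hands them to oxygen. Complexes I, III and IV pump protons, and complex V, the ATP synthase, lets the protons flow back and makes ATP. The liver spends much of this ATP on urea and glucose synthesis during a fast. Most subunits are encoded in the nucleus, and their promoters often carry sites for NRF1, for ETS factors such as GABPA, and for YY1. A few subunits of complexes I, III, IV and V come from the mitochondrial genome. None of the 13 mitochondrial genes of the pathway was among the genes measured here, so all values below are of nuclear genes.

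The promoters are shown because the subunit genes varied together between animals, as described further below. Whether promoter sequence had a part in that variation was not tested. RefSeq (build GRCr8) held a promoter of 300 bases, 250 before and 50 after the gene start, for 72 of the 80 genes. Each was searched on both strands for the letters GCATGCGC (NRF1), CCGGAAG (ETS factors such as GABPA) and ATGGCGG (YY1), and overlapping matches were counted once per promoter. The NRF1 letters were in 9.72% of the 72 subunit promoters, against 4.15% of 13193 promoters of genes named on the array and 2.47% of all 33469 promoters in the table. The ETS letters were in 27.8%, 14.2% and 8.75% of the same sets. The YY1 letters were in 22.2%, 8.05% and 4.8%. At least 1 of the 3 was in 41.7% of subunit promoters, 23.4% of promoters of genes on the array and 14.4% of all promoters, while the median GC content was 56.0%, 59.7% and 51.7%. These shares describe the sequences, and a match is not evidence of binding.

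The matches were spread unevenly over the complexes. The YY1 letters were in 11 of 32 complex I promoters and in 0 of 15 complex IV promoters. Many of the YY1 matches lay in the 50 bases after the gene start. In complex I these included Ndufs4 and Ndufs7 (both 7 bases after it), Ndufa9 (13) and Ndufs6 (26). Others lay before it, as in Ndufa7 (-141) and Ndufs1 (-31). The YY1 shares are therefore not shares of sites upstream of the gene. At least 1 motif was in 14 of 32 promoters of complex I, 2 of 4 of complex II, 4 of 6 of complex III, 3 of 15 of complex IV and 7 of 15 of complex V. RefSeq held promoters for 6 tissue isoforms of complex IV, and 0 of these held a match. It held none for the isoform Cox4i2 or for the pseudogene of the complex, so those were not searched. The following promoters, 1 from each complex with a match, are written 5′ to 3′ on the strand of the gene with the matches in capitals. Where capitals run longer than 1 motif, matches on both strands overlap, as in Ndufa11 and Atp5po, since the NRF1 letters are nearly their own reverse complement. The last 2 are those of the ATPase inhibitor Atp5if1, which held none of the 3 motifs, and of Cox4i1, which held 2 ETS matches. They are shown because these 2 genes followed the other subunit genes least.
Ndufa11, chr9:1637364-1637663, plus strand: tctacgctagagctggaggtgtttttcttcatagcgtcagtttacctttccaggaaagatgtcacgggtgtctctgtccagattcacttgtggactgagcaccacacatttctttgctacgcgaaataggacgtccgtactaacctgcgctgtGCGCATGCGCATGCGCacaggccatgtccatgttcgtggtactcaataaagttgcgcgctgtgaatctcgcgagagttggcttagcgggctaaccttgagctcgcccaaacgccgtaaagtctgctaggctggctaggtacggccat
Sdhb, chr5:158547684-158547983, plus strand: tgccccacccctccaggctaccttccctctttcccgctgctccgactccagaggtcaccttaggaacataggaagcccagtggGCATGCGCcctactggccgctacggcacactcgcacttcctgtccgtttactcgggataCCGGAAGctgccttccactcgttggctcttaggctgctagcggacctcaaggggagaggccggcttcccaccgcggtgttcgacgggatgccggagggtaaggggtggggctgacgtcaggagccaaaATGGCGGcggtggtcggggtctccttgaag
Uqcrc1, chr8:118467973-118468272, plus strand: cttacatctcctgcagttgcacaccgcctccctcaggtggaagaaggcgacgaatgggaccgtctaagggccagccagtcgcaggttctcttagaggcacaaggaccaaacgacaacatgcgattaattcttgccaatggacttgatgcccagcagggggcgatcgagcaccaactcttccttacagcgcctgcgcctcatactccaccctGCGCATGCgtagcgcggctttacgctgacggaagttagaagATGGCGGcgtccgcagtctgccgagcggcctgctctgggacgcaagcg
Cox5b, chr9:46417587-46417886, plus strand: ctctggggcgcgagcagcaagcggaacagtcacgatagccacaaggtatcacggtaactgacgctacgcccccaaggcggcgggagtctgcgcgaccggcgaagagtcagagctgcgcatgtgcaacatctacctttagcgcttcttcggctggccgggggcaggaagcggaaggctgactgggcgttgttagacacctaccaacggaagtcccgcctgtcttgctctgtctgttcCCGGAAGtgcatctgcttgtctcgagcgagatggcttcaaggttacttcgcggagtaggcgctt
Atp5po, chr11:44657434-44657733, minus strand: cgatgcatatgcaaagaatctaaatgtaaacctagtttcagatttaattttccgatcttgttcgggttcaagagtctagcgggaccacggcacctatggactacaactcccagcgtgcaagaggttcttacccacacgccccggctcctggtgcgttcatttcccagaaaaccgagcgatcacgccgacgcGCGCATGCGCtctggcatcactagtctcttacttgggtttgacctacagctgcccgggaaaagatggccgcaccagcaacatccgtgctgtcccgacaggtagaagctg
Atp5if1, chr5:150026628-150026927, minus strand: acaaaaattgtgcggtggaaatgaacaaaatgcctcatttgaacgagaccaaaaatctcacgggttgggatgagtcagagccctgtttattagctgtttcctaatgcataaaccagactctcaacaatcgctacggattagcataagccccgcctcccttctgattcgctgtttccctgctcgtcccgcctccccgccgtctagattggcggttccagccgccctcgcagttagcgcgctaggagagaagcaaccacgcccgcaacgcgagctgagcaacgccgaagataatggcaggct
Cox4i1, chr19:65630133-65630432, plus strand: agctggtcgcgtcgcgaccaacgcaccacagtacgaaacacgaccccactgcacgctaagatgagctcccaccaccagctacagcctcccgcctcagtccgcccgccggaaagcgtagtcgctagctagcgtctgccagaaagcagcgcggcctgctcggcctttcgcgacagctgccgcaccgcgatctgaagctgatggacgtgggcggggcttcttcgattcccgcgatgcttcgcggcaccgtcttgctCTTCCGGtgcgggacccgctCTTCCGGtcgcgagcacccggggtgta

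Between the diets, no subunit gene passed the test. With limma over all 14217 genes, 0 of 80 had an adjusted p under 0.05 (0.0% of all genes), and the smallest adjusted p among them was 1.0. At an unadjusted p under 0.05, 1 subunit gene was lower with maple syrup (2.24% of all genes were) and 0 were higher (2.09% of all genes). No subunit gene had groups that did not overlap (0.0985% of all genes). The mean was lower with maple syrup for 62 of the 80 genes, or 77.5% (52.9% of all genes), in the deposited values, while with arrays centred on their median it was lower for 1 of 80 (7.08% of all genes), and with quantile normalization for 17 of the 32 that still varied (61.3% of all genes). Those 17 include Sdhc, whose g rounded to 0.00 there. The median g was -0.28, beside -0.04 for all genes. Centring the arrays moved both medians to 0.36. It moved nearly all genes alike, so here and below it says nothing about the subunit genes in particular. The count also rested on single rats: without sugar mix replicate 1 it was 48 of 80 (median g -0.11), without maple syrup replicate 5 it was 47 (median g -0.14), and without maple syrup replicate 6 the median g was -0.60 with 71 lower.

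**Figure D1:**
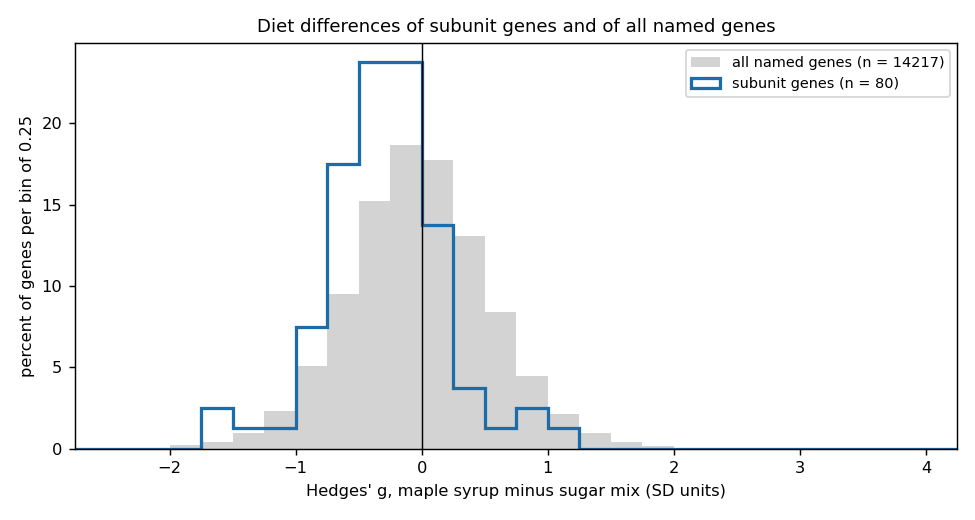
Hedges' g (horizontal axis, SD units) of the 80 subunit genes, drawn as a line, and of all 14217 named genes, drawn as filled bars, each as the percent of genes per bin of 0.25 (vertical axis). In the deposited values the subunit genes sit to the left of all genes (median -0.28 against -0.04), with their values running from -1.64 to 1.03, while with arrays centred on their median both medians are 0.36.

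By complex, in the deposited values, the mean was lower with maple syrup for 23 of 34 genes of complex I, 3 of 4 of complex II, 6 of 7 of complex III, 16 of 19 of complex IV and 14 of 16 of complex V, while with centred arrays it was lower for 1 gene of complex I and 0 of the others. The median g was -0.18, -0.56, -0.33, -0.20 and -0.36 in complexes I to V. Under quantile normalization it was 0.53 over the 14 complex I genes that still varied. It was -0.20 over 2 genes of complex II, -0.37 over 11 of complex IV and -0.73 over 5 of complex V. Over all 32 that still varied it was 0.00, beside -0.15 for all genes. The intervals of single genes were wide, and 3 of the 80 left out 0. These were Ndufb9 of complex I and Atp5f1b and Atp5pb of complex V. The interval rests on each gene's own spread, while the limma p also draws on the spread of other genes. By a t test without moderation, 3 of the 80 and 607 of all 14217 genes had an unadjusted p under 0.05.

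**Figure D2:**
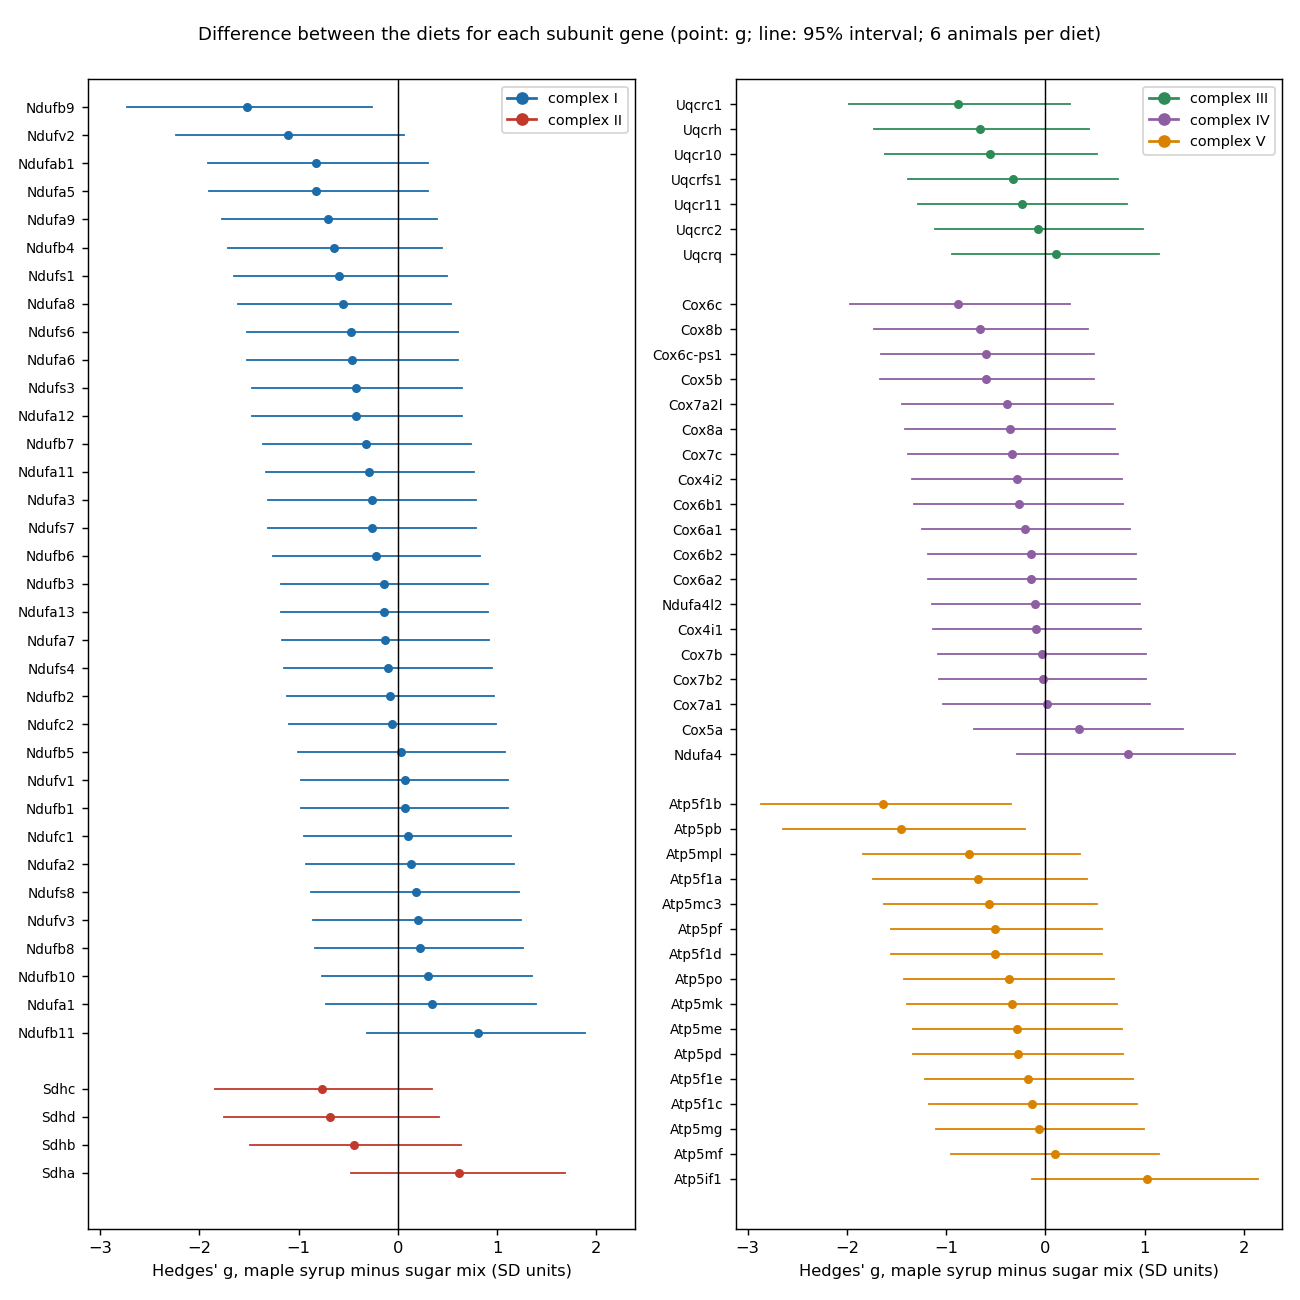
Hedges' g (point) with its 95% interval (line) for each of the 80 subunit genes, maple syrup minus sugar mix, with 6 rats per diet, grouped by complex and ordered by g. The intervals of Ndufb9, Atp5f1b and Atp5pb lie below 0 and those of the other 77 genes include 0. With arrays centred on their median the g of these 3 genes becomes 0.31, 0.36 and 0.35. Nearly all genes share that shift (median g of all genes 0.36).

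Complex I is the NADH dehydrogenase. Its core subunits carry the flavin and the iron-sulfur clusters that conduct electrons, and its accessory subunits surround and stabilise that core. Of the 6 nuclear core subunits measured, 4 were lower with maple syrup (median g -0.34), and of the 28 accessory subunits 19 were (median g -0.14). Ndufv2, a core subunit with an iron-sulfur cluster next to the NADH site, had standardised values from -2.17 to 0.71 (median -0.31) with maple syrup. With the sugar mix its values ran from -0.50 to 1.41 (median 0.53). The lowest of all 12 rats was maple syrup replicate 5, and the groups overlapped. Its g was -1.11 (95% interval -2.24 to 0.06), the maple syrup rat was higher in 6 of 36 pairs, and limma gave an unadjusted p of 0.0565. Under quantile normalization the direction turned, with a g of 1.19 and an unadjusted p of 0.0407 by limma.

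Ndufv1, the subunit that binds NADH and the flavin, had values from -1.39 to 2.48 (median -0.32) with maple syrup and from -0.93 to 1.06 (median 0.01) with the sugar mix. Both extremes were maple syrup rats, replicates 5 and 6, and g was 0.07 (-0.98 to 1.11). Ndufs1, the largest iron-sulfur subunit, had values from -1.62 to 0.87 (median 0.00) with maple syrup and from -0.91 to 1.61 (median 0.28) with the sugar mix. The groups overlapped over most of their range, with a g of -0.59 (-1.65 to 0.50). The other core subunits were Ndufs3 (g -0.42), Ndufs7 (g -0.26) and Ndufs8 (g 0.18).

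Among accessory subunits, Ndufb9, which sits in the proton-pumping membrane arm, had the smallest p of the 80 genes. Its values ran from -2.07 to 0.42 (median -0.67) with maple syrup and from 0.02 to 1.96 (median 0.49) with the sugar mix. All 6 sugar mix rats and 2 of the maple syrup rats were above the gene's mean, sugar mix replicate 1 was the highest and maple syrup replicate 5 the lowest. Its g was -1.52 (-2.73 to -0.26), with 3 of 36 pairs higher with maple syrup and an unadjusted p of 0.0218 by limma. Leaving out each rat in turn kept its g between -1.89 and -1.38 and its unadjusted p between 0.0106 and 0.0451 by limma. The adjusted p over all genes was 1.0.

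Ndufa5, an accessory subunit of the arm that faces the matrix, had values from -1.62 to 0.62 (median -0.27) with maple syrup and from -0.72 to 1.61 (median 0.35) with the sugar mix. The groups overlapped, with a g of -0.82 (-1.90 to 0.30) and a p of 0.142 by limma. Ndufab1, which also serves as the mitochondrial acyl carrier protein, had the same g of -0.82, and Ndufa9 had -0.70. On the other side, Ndufb11 had a g of 0.81, Ndufa1 of 0.35 and Ndufb10 of 0.30. These are all parts of the same membrane arm as Ndufb9, so members of 1 arm had g values from -1.52 to 0.81.

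Complex II is succinate dehydrogenase, which is also an enzyme of the citric acid cycle and has all its subunits in the nucleus. Its flavoprotein Sdha, which oxidises succinate, had values from -0.55 to 2.36 (median -0.03) with maple syrup and from -1.91 to 0.50 (median -0.29) with the sugar mix. The highest rat was maple syrup replicate 6 and the others overlapped. Its g was 0.62 (-0.47 to 1.69) with a p of 0.26 by limma, and under quantile normalization it turned to -0.40. Sdhb, the iron-sulfur subunit, had values from -1.86 to 0.91 (median -0.28) with maple syrup and from -1.15 to 1.91 (median 0.30) with the sugar mix, with a g of -0.44 (-1.49 to 0.64). It overlapped between the diets over nearly the whole range.

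The 2 membrane anchors of complex II, which hold the site where ubiquinone is reduced, both had lower means with maple syrup in the deposited values and higher ones with centred arrays. Sdhc had values from -1.83 to 1.07 (median -0.57) with maple syrup and from -0.33 to 1.57 (median 0.25) with the sugar mix, with a g of -0.76 (-1.84 to 0.35). Sdhd had values from -2.19 to 0.92 (median -0.24) with maple syrup and from -0.62 to 1.23 (median 0.36) with the sugar mix, with a g of -0.68 (-1.75 to 0.42). The groups overlapped for both genes, and the p values by limma were 0.353 and 0.221.

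Complex III moves electrons from ubiquinol to cytochrome c. Uqcrc1, a core protein related to mitochondrial processing peptidases, had values from -2.42 to 0.62 (median -0.30) with maple syrup and from -0.10 to 1.91 (median 0.22) with the sugar mix. Maple syrup replicate 5 lay far below and sugar mix replicate 1 far above the other 10 rats, which overlapped. Its g was -0.88 (-1.98 to 0.25), with a p of 0.133 by limma. Uqcrfs1, the Rieske iron-sulfur protein that takes the first electron, had values from -1.50 to 1.18 (median -0.30) with maple syrup and from -1.54 to 1.12 (median 0.44) with the sugar mix. The ranges of the diets were nearly the same, with a g of -0.33 (-1.38 to 0.73).

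Uqcrh, the hinge protein that helps cytochrome c1 meet cytochrome c, had values from -1.76 to 1.05 (median 0.01) with maple syrup and from -0.58 to 1.51 (median 0.09) with the sugar mix, and a g of -0.66 (-1.73 to 0.44). Uqcr10, a small membrane subunit, had values from -1.47 to 1.85 (median -0.68) with maple syrup and from -0.63 to 1.24 (median 0.38) with the sugar mix, and a g of -0.56 (-1.62 to 0.52). In both genes maple syrup replicate 5 was lowest and the groups overlapped. The other 3 genes of the complex were Uqcr11 (g -0.24), the core protein Uqcrc2 (g -0.07) and Uqcrq (g 0.11).

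Complex IV is cytochrome c oxidase. Its nuclear subunits surround the catalytic core made in mitochondria, and several exist as a form found in most tissues and a form typical of muscle, lung or testis. Leaving aside these tissue isoforms and 1 pseudogene, 9 of 11 genes had lower means with maple syrup (median g -0.27) in the deposited values and 0 with centred arrays. Cox6c had the smallest p of the complex. Its values ran from -1.26 to 1.16 (median -0.62) with maple syrup and from -0.66 to 1.90 (median 0.27) with the sugar mix. The groups overlapped, with a g of -0.88 (-1.97 to 0.25) and a p of 0.124 by limma.

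Cox4i1, the regulatory subunit that binds ATP, had values from -1.14 to 1.30 (median -0.15) with maple syrup and from -1.53 to 1.76 (median 0.05) with the sugar mix, with a g of -0.09 (-1.13 to 0.96). Cox5a, which lies against Cox4i1 on the matrix side, had values from -1.02 to 0.96 (median 0.49) with maple syrup and from -1.54 to 1.47 (median -0.23) with the sugar mix, with a g of 0.34 (-0.72 to 1.39). Neither gene separated the diets. Cox5b, the zinc-binding subunit, had values from -1.88 to 0.79 (median -0.07) with maple syrup and from -1.53 to 1.16 (median 0.66) with the sugar mix, with a g of -0.60 (-1.67 to 0.49). Its lowest rats were maple syrup replicate 5 and sugar mix replicate 6, 1 of each diet.

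Cox6a1, the form of its subunit found in liver, had values from -2.13 to 1.77 (median -0.05) with maple syrup and from -0.80 to 1.18 (median 0.05) with the sugar mix, with a g of -0.20 (-1.24 to 0.85). Cox6b1, which contacts cytochrome c, had values from -1.13 to 2.46 (median -0.57) with maple syrup and from -0.25 to 1.37 (median -0.01) with the sugar mix, with a g of -0.27 (-1.32 to 0.78). In both genes the lowest and the highest rat were maple syrup replicates 5 and 6. Cox8a had values from -1.99 to 1.40 (median -0.17) with maple syrup and from -0.95 to 1.34 (median 0.18) with the sugar mix, with a g of -0.36 (-1.41 to 0.70). Cox7a2l, which joins complexes III and IV into a supercomplex, had values from -1.92 to 0.95 (median -0.15) with maple syrup and from -1.34 to 1.72 (median 0.20) with the sugar mix, with a g of -0.39 (-1.44 to 0.68). These also overlapped between the diets.

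Ndufa4, first assigned to complex I and now known as a subunit of complex IV, stood on the other side. Its values ran from -0.57 to 2.26 (median 0.30) with maple syrup and from -1.21 to 0.93 (median -0.74) with the sugar mix. It was higher in the maple syrup rat in 28 of 36 pairs, with a g of 0.83 (-0.29 to 1.91) and a p of 0.347 by limma, so the groups overlapped and the test was not passed. The remaining subunits were Cox7b (g -0.03) and Cox7c (g -0.34).

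The tissue isoforms were dim on these arrays. The 7 isoforms and the pseudogene Cox6c-ps1 had levels from 6.22 to 7.42, and 7 of these 8 lay below 7.3663, the median of all probe sets, while the other 72 subunit genes had levels from 8.08 to 13.48. Detection calls were not used here, so it is not known which of the 8 were above background. The muscle forms Cox6a2, Cox7a1 and Cox8b had g values of -0.14 (-1.18 to 0.91), 0.02 (-1.03 to 1.06) and -0.66 (-1.73 to 0.43), of which the last 2 turned to -0.91 and 0.70 under quantile normalization. Cox6a2 had values from -1.17 to 2.04 with maple syrup and from -1.60 to 0.90 with the sugar mix, Cox7a1 from -1.38 to 1.54 and from -0.77 to 0.76, and Cox8b from -2.16 to 1.22 and from -0.05 to 0.79. For each of them the range was wider with maple syrup than with the sugar mix, and the groups overlapped.

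The lung form Cox4i2, which is induced by low oxygen, had values from -1.26 to 1.50 (median -0.14) with maple syrup and from -1.39 to 1.64 (median 0.36) with the sugar mix, with a g of -0.29 (-1.34 to 0.77). The pseudogene had values from -1.53 to 0.80 (median -0.39) with maple syrup and from -1.64 to 1.87 (median 0.43) with the sugar mix, with a g of -0.60 (-1.66 to 0.49). Its sequence is close to that of Cox6c, so its probe set may also read the parent gene. The testis forms Cox6b2 and Cox7b2 had g values of -0.14 and -0.02, and Ndufa4l2, also induced by low oxygen, of -0.10.

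Complex V is built of a catalytic head, a peripheral stalk that holds the head still and a membrane part with the rotating ring. In the deposited values all 5 genes of the head and central stalk (median g -0.51), all 4 of the peripheral stalk (median g -0.44) and 5 of the 6 of the membrane part (median g -0.32) had lower means with maple syrup, while with centred arrays 0 of the 16 genes of the complex did. Atp5f1b, the catalytic beta subunit, had values from -1.91 to 0.46 (median -0.75) with maple syrup and from -0.18 to 1.46 (median 0.65) with the sugar mix. The groups overlapped in maple syrup replicates 3 and 6 and sugar mix replicates 1 and 6. Its g of -1.64 (-2.87 to -0.35) was the lowest of the 80 genes, with 3 of 36 pairs higher with maple syrup and a p of 0.0818 by limma.

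Atp5f1a, the alpha subunit that alternates with beta in the head, had values from -1.57 to 1.33 (median -0.73) with maple syrup and from -0.54 to 1.14 (median 0.44) with the sugar mix, with a g of -0.68 (-1.74 to 0.42). Maple syrup replicate 6 was the highest rat for alpha. The other head and central stalk genes were Atp5f1d (g -0.51), Atp5f1e (g -0.17) and Atp5f1c (g -0.13).

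Atp5pb, the b subunit of the peripheral stalk, had values from -2.13 to 1.00 (median -0.53) with maple syrup and from -0.04 to 1.31 (median 0.59) with the sugar mix. Of the 6 maple syrup rats, 5 were below every sugar mix rat, and replicate 6 was the exception. Its g was -1.45 (-2.64 to -0.20), with 5 of 36 pairs higher with maple syrup and a p of 0.0692 by limma. Without 1 rat at a time, its g ran from -2.41 to -1.27. The other stalk genes were Atp5pf (g -0.51), Atp5po, the subunit that ties the stalk to the head (g -0.37), and Atp5pd (g -0.28).

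Atp5mc3 encodes subunit c of the rotating ring, a protein that other genes encode too. It had values from -1.82 to 0.56 (median -0.24) with maple syrup and from -0.94 to 1.86 (median 0.24) with the sugar mix, with a g of -0.57 (-1.63 to 0.52). The other membrane genes ran from Atp5mpl (g -0.77) over Atp5mk (g -0.34), Atp5me (g -0.29) and Atp5mg (g -0.06) to Atp5mf (g 0.10). No member of the membrane part separated the diets.

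Atp5if1 encodes the inhibitor that stops the synthase from running backwards and consuming ATP when the membrane potential is lost. It was the gene with the highest g of the 80. Its values ran from -0.06 to 1.36 (median 0.36) with maple syrup and from -1.31 to 1.52 (median -0.91) with the sugar mix. Of the sugar mix rats, 5 were lower than every maple syrup rat and replicate 5 was higher than all of them. Its g was 1.03 (-0.13 to 2.14), the maple syrup rat was higher in 30 of 36 pairs, and limma gave a p of 0.0845. Without sugar mix replicate 5 its g was 2.18, with a p of 0.00486 by limma that was 0.998 after adjustment over all genes. Leaving out other rats lowered it, to 0.86 without sugar mix replicate 2 (limma p 0.157) and 0.85 without sugar mix replicate 3 (limma p 0.162). The other 2 probe sets of Atp5if1 had g values of -0.01 and 0.36 and levels of 7.05 and 6.89.

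Of the 80 genes, 8 had more than 1 probe set. Among their 9 other probe sets, 7 had the same sign of g as the probe set used. Sdhd was the gene whose 2 probe sets followed each other most closely between animals (r 0.70 over 12 animals with diet means removed, g -0.68 and -0.48). For Atp5po the second probe set had a g of 0.40 against -0.37, at a level of 6.90 against 12.10. The others had correlations from -0.54 to 0.50 with the probe set used.

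Genes that work with the subunits were taken from lists written beside the symbol rule. None of them passed the adjusted threshold in limma. The assembly factors of complex I had 13 of 17 lower with maple syrup (median g -0.44), those of complex II 1 of 4 (0.08), those of complex III 3 of 6 (-0.24), those of complex IV 14 of 21 (-0.19) and those of complex V 3 of 4 (-0.47), beside 52.9% and -0.04 for all genes. The smallest p values belonged to Ecsit (g -1.21, limma p 0.0408) and Acad9 (g -1.03), partners in building the membrane arm of complex I. In the complex II list they were Sdhaf3 (g 1.08) and Sdhaf1 (g -0.78), which help load iron-sulfur clusters onto Sdhb. In the complex III list they were Ttc19 (g 1.08) and Uqcc1 (g -0.96). Cox19 (g -1.25, limma p 0.0371) and Cmc1 (g 1.10) led the complex IV list, and Atpaf1 (g -0.88), a chaperone of the beta subunit, and Dmac2l (g -0.50) the complex V list.

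The mobile carriers, ubiquinone synthesis enzymes and transporters had 14 of 21 lower (median g -0.05). Coq10b, which binds ubiquinone, had a g of -1.10, and Etfdh, which feeds electrons from fatty acid oxidation into ubiquinone, of 1.08. The factors that govern nuclear and mitochondrial transcription had 8 of 16 lower (median g 0.05), led by Gabpb1 (g 0.89) and Pprc1 (g 0.59). Those whose motifs were searched in the promoters had g values of 0.16 for Nrf1, 0.27 for Gabpa and 0.55 for Yy1. With arrays centred on their median, the median g of these 7 lists ran from 0.23 to 0.37, near the 0.36 of all genes, and with quantile normalization from -0.20 to 0.09. Both scalings were run on the lists after their values had been seen.

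The subunit genes varied together between animals. With each diet's mean removed, the median correlation over the 3160 pairs of subunit genes was 0.39 across the 12 animals, beside 0.00 over the 101054436 pairs of all named genes. The correlation was above 0 in 85.1% of subunit pairs (50.5% of all pairs) and above 0.5 in 38.0% (7.41% of all pairs). These values are descriptions, since all genes were read on the same 12 arrays and share each array's hybridisation and scaling. Within complexes the median was 0.45 for complex I, 0.21 for II, 0.47 for III, 0.22 for IV and 0.56 for V. Between complexes III and V it was 0.58 and between II and IV 0.06.

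**Figure D3:**
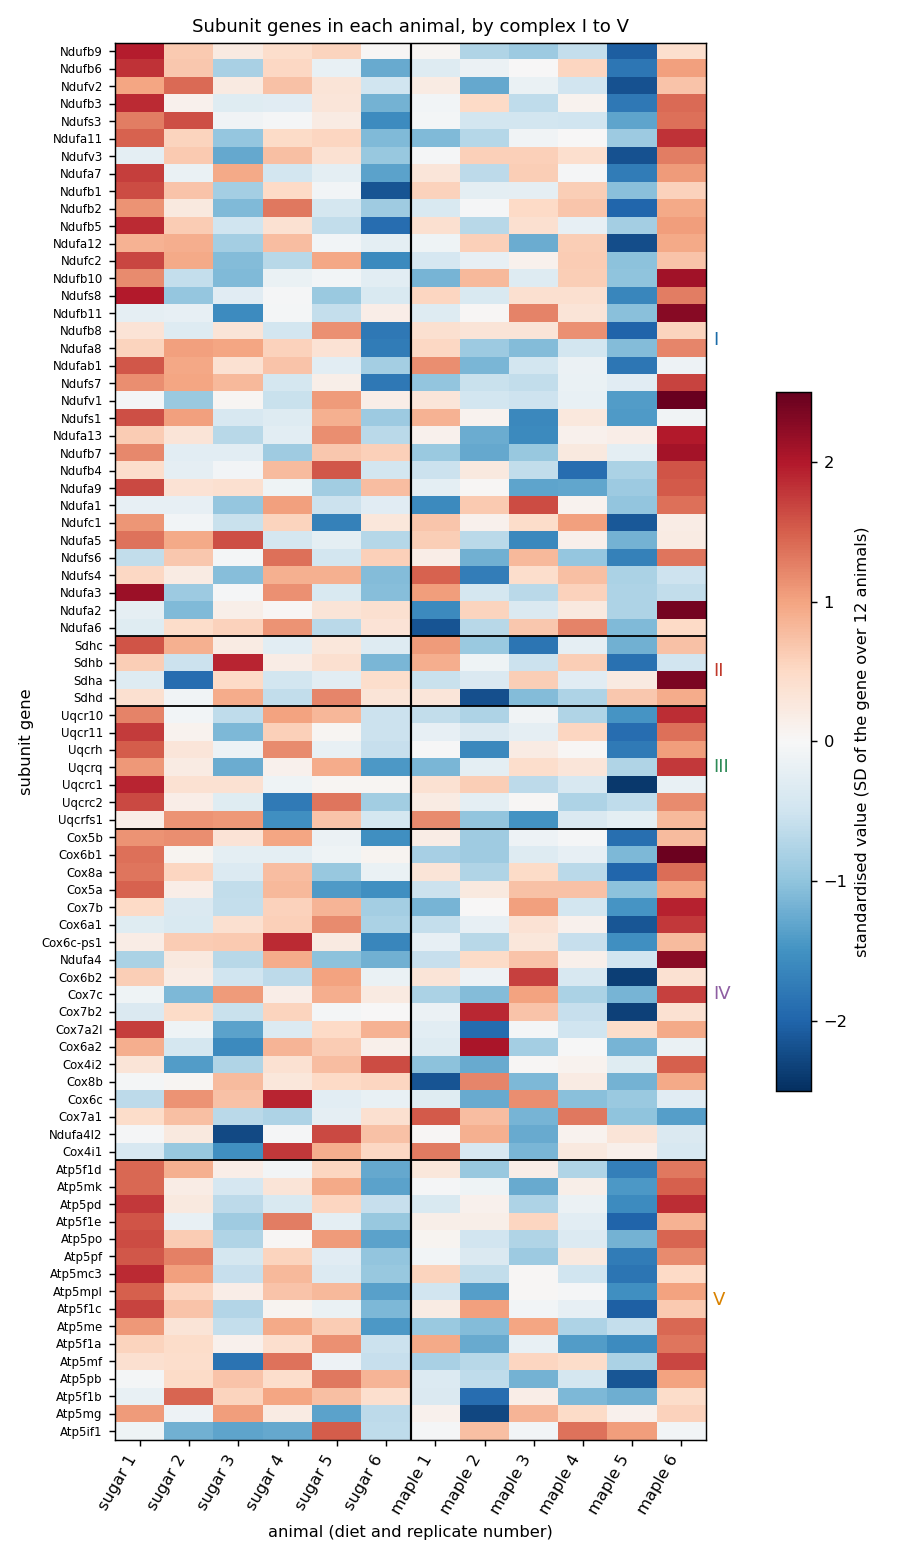
Standardised value (colour, in SD units of the gene over 12 animals) of each of the 80 subunit genes (rows, complex I to V) in each animal (columns, sugar mix replicates 1 to 6, then maple syrup replicates 1 to 6). The columns of sugar mix replicate 1 and maple syrup replicate 6 are mostly high, with 61 and 68 genes above their own mean, and that of maple syrup replicate 5 is mostly low, with 8 genes above.

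A few rats held the highest and lowest values of many genes, and these were not split by diet. The mean standardised value of the 80 genes was 0.87, 0.23, -0.25, 0.30, 0.25 and -0.55 in sugar mix replicates 1 to 6. It was -0.09, -0.38, -0.15, -0.05, -1.21 and 1.01 in maple syrup replicates 1 to 6. The highest and the lowest rat thus had the same diet, and 28 genes had their highest value in sugar mix replicate 1, 26 in maple syrup replicate 6, while 37 had their lowest in maple syrup replicate 5 and 14 in sugar mix replicate 6. The median pair correlation was 0.32 without maple syrup replicate 5, 0.29 without replicate 6 and 0.22 without both, and between 0.40 and 0.43 when any other single rat was left out.

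**Figure D4:**
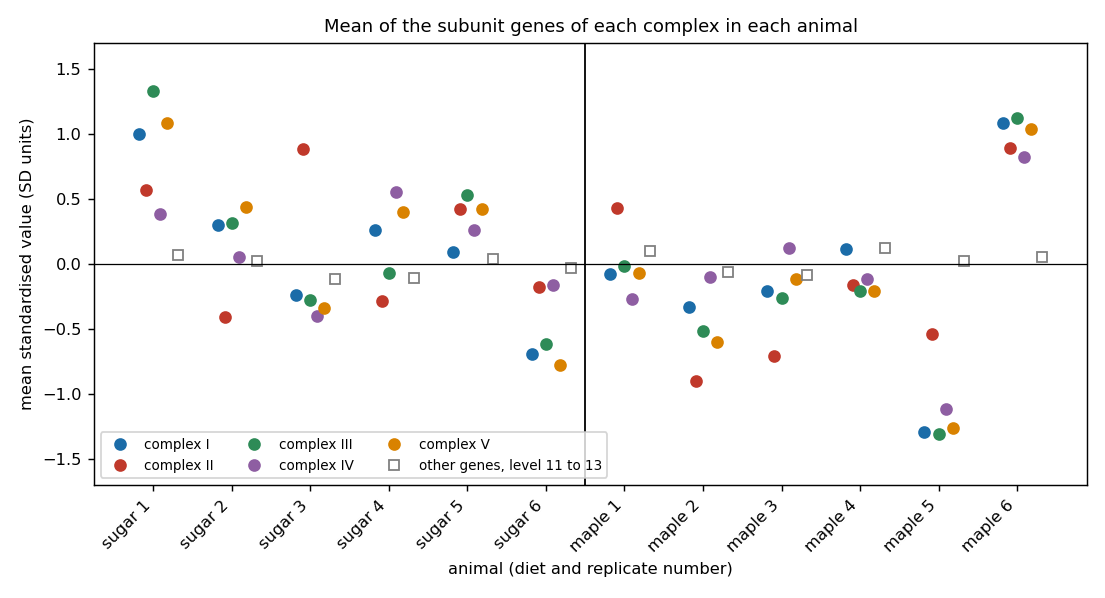
Mean standardised value (vertical axis, SD units) of the subunit genes of each complex (coloured points) in each of the 12 animals (horizontal axis), with open squares for the 786 other genes at levels between 11 and 13. In maple syrup replicate 6 all 5 complexes lie between 0.82 and 1.12 and in maple syrup replicate 5 between -1.31 and -0.54. The other genes stay between -0.12 and 0.12 in all 12 animals. A mean over that many genes without a common direction is expected near 0 on any array. The squares are therefore no test of whether the swing is particular to the subunit genes.

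Other measures of these arrays moved with the pattern in part. Maple syrup replicate 6 had the lowest array median (7.366187), while maple syrup replicate 5 had 7.366319, nearly the same as maple syrup replicate 4 (7.366320) and sugar mix replicate 5 (7.366319). The weights that limma estimates for array quality were lowest for maple syrup replicates 5 (0.72) and 6 (0.746), followed by sugar mix replicates 6 (0.772) and 1 (0.87), so the 4 rats at the extremes were the 4 lowest, and the highest weight was 1.328. The 786 other genes at levels between 11 and 13 had means of 0.02 and 0.05 in maple syrup replicates 5 and 6. Such a mean is expected near 0 on any array if rises and falls balance over the genes. The median pair correlation of all named genes was 0.00, which does not exclude groups of genes that varied together. Of the hepatocyte markers, 3 of 12 were lower with maple syrup (median g 0.45), and their mean ran from -0.61 to 0.23 with the sugar mix and from -0.10 to 0.41 with maple syrup, with 0.10 and 0.41 in maple syrup replicates 5 and 6. Of the markers of macrophages, including the liver's Kupffer cells, 7 of 9 were lower with maple syrup (median g -0.68). Their mean ran from -0.28 to 0.76 with the sugar mix and from -1.34 to 0.68 with maple syrup, and both rats at the extremes were near the top, with 0.67 and 0.58. The 12 muscle markers, all dim, had their lowest mean in maple syrup replicate 5 (-0.97) and their highest in replicate 6 (0.51). They had 0.47 in sugar mix replicate 1. The dim tissue isoforms and pseudogene of complex IV had -1.20 and 0.26 in maple syrup replicates 5 and 6. Stellate cell and fibroblast markers went the other way, with 0.92 and -0.10. In the same 2 rats sinusoidal endothelial markers had 0.60 and 0.25, cholangiocyte markers 0.08 and 0.03 and erythroid markers -0.06 and 0.01. Adipocyte markers had -0.26 and 0.45, and genes that respond to tissue handling had -0.23 in both. Whether tissue make-up, RNA quality or array handling had a part in the pattern was not tested. In whole liver, fewer cells of a type and less RNA per cell cannot be told apart.

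Some members stood apart from the common variation. Of the 80 genes, 32 had a median correlation above 0.5 with the other members, with the highest, 0.61, in Ndufb9, Atp5mk, Atp5f1d and Atp5pd. At the other end, 4 genes had a median below 0, which were Atp5if1 (-0.07), Cox4i1 (-0.07), Ndufa4l2 (-0.05) and Cox7a1 (-0.03). Ndufa4l2 and Cox7a1 belong to the dim tissue isoforms, whose median correlation with each other and the pseudogene was 0.12, against 0.39 among the other 11 genes of complex IV. Low level alone did not mark such genes, as Cox6b2 had a median correlation of 0.41 at a level of 6.74 and Cox6c-ps1 of 0.46 at 7.26. Cox4i1 (level 13.15), Cox6c (0.02, level 12.53), Uqcrfs1 (0.10, level 12.55), Sdhd (0.05, level 11.97) and Sdha (0.12, level 11.47) were bright genes with low values.

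**Figure D5:**
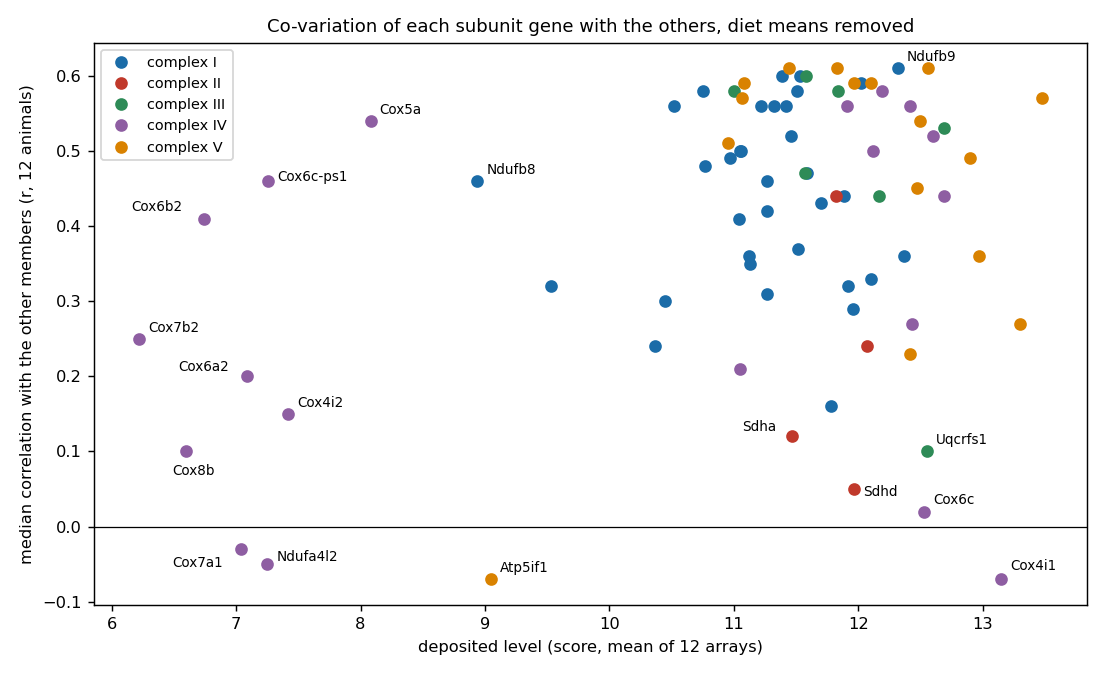
Median correlation of each of the 80 subunit genes with the other members over 12 animals, diet means removed (vertical axis), against the deposited level of its probe set (horizontal axis, score), coloured by complex. Of the 80 genes, 32 lie above 0.5 and 4 below 0, and the 8 tissue isoforms and pseudogene of complex IV, at levels from 6.22 to 7.42, spread from -0.05 to 0.46.

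The genes with a median correlation above 0.5 and a promoter in the table numbered 27, and 10 of them held at least 1 of the 3 motifs (37.0%), beside 30 of all 72 subunit promoters (41.7%). Among the promoters printed above, Ndufa11 (median correlation 0.58), Cox5b (0.58) and Atp5po (0.59) belong to genes of high co-variation. Uqcrc1 (0.47) was intermediate. Sdhb, whose promoter held all 3 motifs, had 0.24. Of the genes at the low end, Cox4i1 (-0.07) and Sdhd (0.05) each held 2 ETS matches and Atp5if1 (-0.07) held none, so matches occurred at both ends of the co-variation.

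The assembly factors followed the subunits in some rats. Their 5 lists had means from 0.85 to 1.29 in sugar mix replicate 1 and from -1.26 to -0.41 in maple syrup replicate 5. In maple syrup replicate 6, where the subunits were highest, the means of these lists ran from 0.11 to 0.77, below those of the subunits. The 16 regulators of transcription had means between -0.35 and 0.36 in all 12 rats.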

How the data were processed

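Total RNA from 12 livers, 6 per diet, was labelled from 2 ug per the labels' protocols and read on Affymetrix arrays. The deposited values are treated as a score: how the authors summarised and normalized the deposited values is not given in the sources used here; the values resemble log2 levels with compressed differences between arrays. The test, planned for log2 values, was kept, since it scales differences by the spread within a gene.

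Of 31099 probe sets, 57 controls were left out, 20826 had 1 symbol (20758 found in RefSeq), 436 had several and 9831 are unnamed here. The probe set with the highest mean stood for each of 14217 genes. The diet comparison used limma 3.58.1 (R 4.3.3) with lmFit and eBayes, an intensity trend and two-sided p values, adjusted after Benjamini and Hochberg over all genes at 0.05. The prior degrees of freedom were 0.6489. Hedges' g has a 95% interval from the noncentral t distribution. Correlations used values with diet means removed. Figures used matplotlib 3.10.9. The labels give no batch, and nothing links replicate numbers across diets: same-numbered rats had correlations from -0.029 to 0.122.

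The members and all lists were chosen with earlier results of these data known, so their directions are not independent evidence. Named genes are the 3 with the smallest p in each complex (4 in complex II), 23 measured of 27 written names, and the 2 with the smallest p of each pathway list; other genes named in passing were picked after their values were seen. Alternatives were quantile normalization, median centring, other probe set and symbol rules, a filter on the lowest 30% of genes, no trend, no moderation, weights for arrays, a block for the replicate number and each rat left out. The number of arrays limits the precision.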

Additional observations from a re-analysis of the deposited data

Results flagged for a closer look

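Within a diet, a rat was marked where the gap between it and its nearest neighbour took up more of the group's range than Dixon's 95% critical value for 6 samples. Of 74 tests on named members and complex means, 5 were marked, and chance alone marks about 5% of groups. All values are standardised values of the gene. Sugar mix replicate 1 stood above the other sugar mix rats in 3 genes, with Ndufb9 at 1.96, Uqcrc1 at 1.91 and Cox6b1 at 1.37. Maple syrup replicate 6 stood above its group in Cox6b1, at 2.46. Maple syrup replicate 2 stood above its group in the muscle isoform Cox6a2, at 2.04. The first 4 of these lie in the 2 rats in which the subunit genes as a whole were high (means 0.87 and 1.01).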

How the results depend on the processing

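With limma 0 genes passed the adjusted threshold under every alternative listed in the methods, with 149 to 867 genes at an unadjusted p under 0.05 (616 in the reported analysis) and 0 to 5 members. Centring the arrays on their median, whose gap of 0.000133 exceeds the spread of most members, moved nearly all genes alike (7.08% of all genes lower), so it says nothing about these genes in particular. With it 1 of 80 members was lower with maple syrup (1 in complex I and 0 in each of complexes II, III, IV and V), and the median g was 0.36 over all members, 0.36 in complexes I and II, 0.32 in III and 0.35 in IV and V, beside 0.36 for all genes. Of the named members 26 changed sign there: g was 0.36 for Atp5f1a, Atp5f1b, Cox4i2, Cox6a1 and Sdhb, 0.35 for Atp5mc3, Atp5pb, Cox6a2 and Sdhc, 0.37 for Cox4i1 and Uqcrfs1, 0.34 for Cox6b1 and Cox7a2l, 0.33 for Cox5b, 0.32 for Uqcrh, 0.31 for Ndufb9, Sdhd and Uqcr10, 0.30 for Uqcrc1, 0.29 for Cox6c and Cox8a, 0.27 for Ndufs1, 0.20 for Cox8b, 0.18 for Cox6c-ps1, 0.13 for Ndufv2 and 0.00 for Ndufa5. Quantile normalization left 48 of 80 members with the same value on all arrays, beside 964 of all 14217 genes. The 32 that still varied are thus a selected part of the members, with none of complex III. Of these, 17 were lower (3 of 14 in complex I, 2 of 2 in II, 8 of 11 in IV and 4 of 5 in V). The count in complex II includes Sdhc, whose g rounded to 0.00, so it was lower in sign only. The median g was 0.53 in complex I, -0.20 in II, -0.37 in IV and -0.73 in V. Over the 32 members it was 0.00, beside -0.15 for all genes. The g turned to 0.00 for Cox4i2, -0.91 for Cox7a1, 0.70 for Cox8b, 1.19 for Ndufv2 and -0.40 for Sdha. The cause of these changes was not tested. In the pathway lists, run with both scalings after their values had been seen, the median g turned with centring to 0.23, 0.35, 0.35 and 0.26 for the assembly factors of complexes I, III, IV and V and 0.35 for the carriers, and with quantile normalization to 0.09 for the assembly factors of complex V.

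Leaving out 1 rat at a time gave 47 to 71 members lower and a median g from -0.60 to -0.11. By complex the lower members numbered 17 to 30 in I, 3 to 3 in II, 4 to 7 in III, 11 to 17 in IV and 10 to 15 in V, and the median g ran from -0.50 to 0.02, -0.72 to -0.35, -0.55 to -0.18, -0.62 to -0.04 and -0.75 to -0.13. The value of 0.02 in complex I came without sugar mix replicate 1. Among named members, 15 of 372 such values changed sign, all in genes of small g: Cox7a1 (-0.27 to 0.28), Cox4i1 (-0.40 to 0.25), Cox6a1 (-0.65 to 0.20), Cox6a2 (-0.67 to 0.05) and Ndufv1 (-0.57 to 0.34). With the replicate number as a block, 62 members were lower, the median g was -0.21, and 0 genes were called (649 at an unadjusted p under 0.05 by limma). The probe set, symbol, filter, trend, moderation and weighting alternatives kept the count lower at 61 or 62 of 80, or 58 of 75 after the filter, and the median g between -0.33 and -0.28. Groups of 6 leave wide intervals: a g near 0 here has an interval that reaches about 1 in either direction.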

Other observations

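Ribosomal protein genes were summarised by animal in the same way as the subunit genes; both sets were chosen after the values of the subunit genes had been seen. The 73 genes of the mitochondrial ribosome (Mrpl and Mrps), which make the mitochondrially encoded subunits, had a mean standardised value of 1.18 in sugar mix replicate 1 and -1.0 in maple syrup replicate 5, but 0.32 in maple syrup replicate 6. The 42 genes of the cytosolic ribosome (Rpl and Rps) had means of 0.99 in sugar mix replicate 1 and 1.10 in maple syrup replicate 6, but 0.11 in maple syrup replicate 5 and -1.54 in sugar mix replicate 3. The subunit genes were at 0.87, -1.21, 1.01 and -0.25 in sugar mix replicate 1, maple syrup replicates 5 and 6 and sugar mix replicate 3. The mitochondrial ribosomal genes were thus high in sugar mix replicate 1 and low in maple syrup replicate 5, as the subunits were. In sugar mix replicate 6 both were low as well (-0.86, subunits -0.55). The cytosolic ribosomal genes were high in sugar mix replicate 1 and maple syrup replicate 6, as the subunits were.

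The arrays also carry control probe sets for the 5′ end, middle and 3′ end of beta-actin, Gapdh and hexokinase, which enter no comparison above. The Gapdh sets, in standardised values, ran from 0.819 to 1.595 in sugar mix replicate 1, from -1.27 to -0.692 in maple syrup replicate 5 and from 0.109 to 0.668 in maple syrup replicate 6, but they were lower still in maple syrup replicates 2 (-1.505 to -1.283) and 3 (-1.589 to -1.322), where the subunit genes had means of -0.38 and -0.15. The beta-actin sets ran from -1.104 to -0.654 in maple syrup replicate 5, and each was lowest in replicate 3 or 4 of that diet. The 5′ set of beta-actin was also low in sugar mix replicate 4 (-1.335), below its value in maple syrup replicate 4 (-1.272). The hexokinase sets ran from -0.362 to 0.578 in maple syrup replicate 5.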
